A study of Homo sapiens with 4 samples.

Results

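Interferon-stimulated genes are the genes that cells switch on when an interferon binds its receptor. Here 49 of them, chosen by symbol as antiviral effectors, sensors, transcription factors and related induced genes, were followed through 4 libraries of lung adenocarcinoma cells. They were matched by NCBI Gene ID among the 17490 genes listed in at least 1 library, and all 49 were listed in all 4. The libraries came from 2 established human cell lines, H1975 and HCC827, both of which carry activating mutations of the EGFR receptor kinase. In H1975, a library of cells sensitive to osimertinib, an irreversible EGFR inhibitor, was set beside a library of cells resistant to it. In HCC827 the drug was gefitinib, which inhibits EGFR reversibly, and again a sensitive and a resistant library were compared. Each of the 4 groups had 1 library, so a difference within a line has no replicate check and carries no p-value. The sources used here do not say how the resistant cells were derived, whether they descend from 1 clone, or whether they were kept in drug until harvest.

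Type I and type III interferons signal through JAK kinases to a complex of STAT proteins with IRF9, which binds a DNA element called the interferon-stimulated response element (ISRE). Interferon gamma acts mainly through pairs of STAT proteins that bind a different element, the gamma-activated site (GAS). The induced proteins degrade or sequester viral RNA, block viral entry, or feed back on the pathway as sensors and transcription factors, and many tumour cells keep part of this programme on without infection.

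The H1975 libraries held 22145163 (sensitive) and 22217897 (resistant) expected counts, which are estimated reads per gene, and the HCC827 libraries 10934558 and 11034837. Levels are given as FPKM, reads scaled by transcript length and library total. Each ratio divides the resistant by the sensitive library within a line, on normalised counts, and the bracketed range is a 95% exact interval for counting error alone. A gene was considered in a line where at least 1 library had 1 FPKM and 20 counts, and calls of higher or lower needed a difference of 2-fold or more with an interval excluding 0. The labelled cell type was checked against 9 lung and epithelial markers, which summed to 2999 and 1018 FPKM in H1975 (sensitive and resistant) and to 7002 and 2126 FPKM in HCC827. Of the epithelial markers, EPCAM had 150.5 and 2.85 FPKM in sensitive and resistant H1975 and 207 and 29.9 FPKM in HCC827. KRT19 had 481 and 6.82 FPKM in H1975 and 1741 and 297 FPKM in HCC827. CDH1 had 85.6 and 0.73 FPKM in H1975 and 189 and 46.3 FPKM in HCC827. The H1975 sums were mostly keratins, with 1140 and 192.5 FPKM for KRT7, 630 and 455 for KRT8, and 503 and 354 for KRT18. Of the lung markers, NKX2-1, the lineage factor, had 7.66 and 5.97 FPKM in sensitive and resistant H1975, and 25.4 and 0.08 FPKM in HCC827. NAPSA, an alveolar protease, had 0.32 and 0.09 FPKM in H1975 and 42.1 and 0.29 FPKM in HCC827, and the surfactant gene SFTPB had 0.34 and 0.28 FPKM and 1.21 and 1.05 FPKM. Blood cell markers summed to between 85.8 and 106 FPKM over the 4 libraries, most of it CD68, and PTPRC, the leukocyte marker CD45, was at 0.50 FPKM or less in each. CSF1R had 6.09 and 1.72 FPKM and CD14 3.43 and 2.38 FPKM in sensitive and resistant H1975, and LYZ 4.57 and 4.25 FPKM in HCC827. Fibroblast and endothelial markers summed to 16.45 and 10.61 FPKM in H1975 and to 2.59 and 5.76 FPKM in HCC827. CD3E and MS4A1, markers of T and B cells, were listed in no library. The lower epithelial marker sums of both resistant libraries accompany every result that follows, and their part in those results was not tested.

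The promoters show what the members share by sequence. RefSeq promoters of the GRCh38.p14 build, reaching from 250 bases before to 50 after the gene start, were matched for 38 of the 49 members. The unmatched members were MX2, OAS2, OASL, IFIT2, IFITM2, TRIM22, GBP2, USP18, DHX58, ZNFX1 and IRF7. The core of the ISRE, which is TTTC, any 2 bases and TTTC, was present on either strand in 24 of the 38 (63.2%) and in 3.65% of all 27305 promoters of that length. The GAS letters, TTCNNNGAA, were present in 10 of the 38 (26.3%) and in 7.88% of all promoters; in some members the 2 matches overlap. By role, the ISRE core was found in 13 of 17 effectors, 1 of 3 sensors and 0 of 3 STAT and IRF factors, whereas GAS letters were found in 2 of those 3 factors. The ISRE stretches below are examples from members called in at least 1 line, and GBP1 among them was called higher in both. The GAS stretches are from the factors that hold those letters. Each is written 5′ to 3′ on the gene's strand, with the matching letters in capitals, and lies wholly before the gene start. They are HERC5 (chr4:88457035-88457064, plus strand), EPSTI1 (chr13:42992272-42992301, minus), IFITM1 (chr11:313990-314019, plus), IFIT1 (chr10:89392510-89392539, plus), ISG15 (chr1:1013380-1013409, plus), GBP1 (chr1:89065316-89065345, minus) and IFI27 (chr14:94110618-94110647, plus) for the ISRE core, then IRF9 (chr14:24161192-24161220, plus) and IRF1 (chr5:132490879-132490907, minus) for GAS.
HERC5: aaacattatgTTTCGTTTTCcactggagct
EPSTI1: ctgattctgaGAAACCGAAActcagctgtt
IFITM1: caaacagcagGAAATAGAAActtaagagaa
IFIT1: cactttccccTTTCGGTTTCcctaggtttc
ISG15: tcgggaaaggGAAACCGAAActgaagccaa
GBP1: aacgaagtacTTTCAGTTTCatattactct
IFI27: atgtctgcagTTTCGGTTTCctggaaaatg
IRF9: accacgtgatTTCTGGGAAaaggccctcc
IRF1: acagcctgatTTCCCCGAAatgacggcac

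Interferon-stimulated genes were expressed in both sensitive lines, and at a higher median level in H1975. Their median was 27.7 FPKM in sensitive and 29.5 FPKM in resistant H1975 cells, against 11.0 FPKM in sensitive and 4.02 FPKM in resistant HCC827 cells. All 49 members reached 1 FPKM in both H1975 libraries, 45 did so in sensitive HCC827, and 35 in resistant HCC827. IFITM3, which blocks virus entry at endosomes, was the highest member in 3 of the libraries (685 FPKM in resistant H1975, 258 and 411 FPKM in sensitive and resistant HCC827). In sensitive H1975 the highest was IFI27, a small mitochondrial and nuclear membrane protein, with 759 FPKM. TRIM22, an antiviral ubiquitin ligase, was the lowest member in both H1975 libraries and in sensitive HCC827. The transcript models differ between the lines, so these levels are set side by side without a test.

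**Figure D1:**
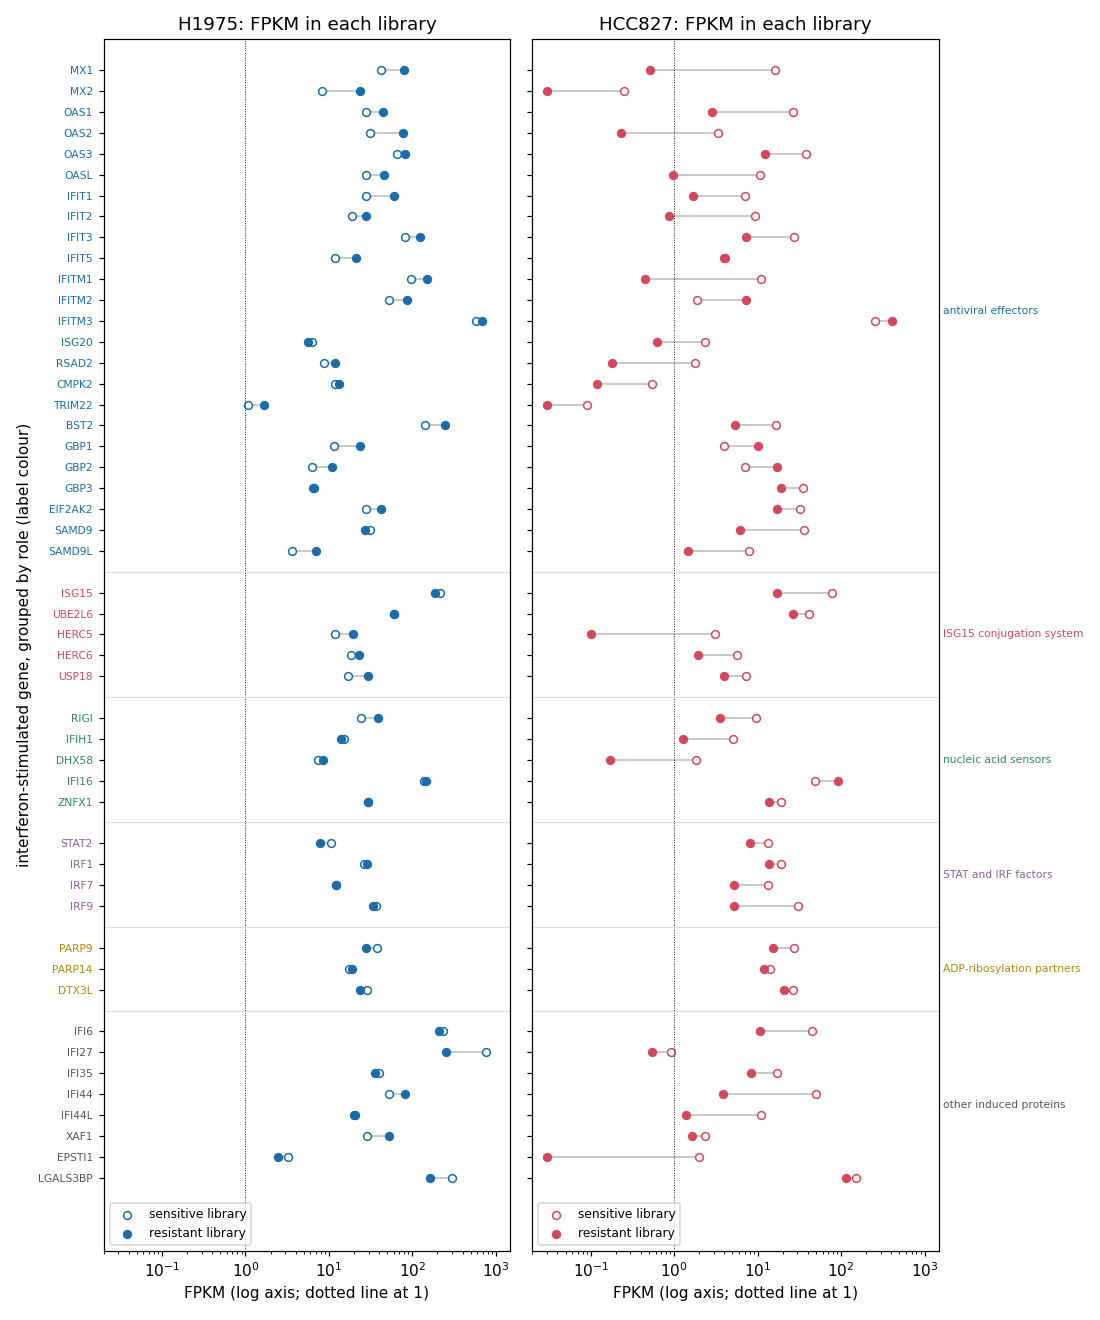
FPKM of each of the 49 interferon-stimulated genes (rows, grouped by role) in the sensitive library (open circle) and the resistant library (filled circle) of H1975 (left) and HCC827 (right), on a log axis. Most filled circles lie to the right of or close to the open ones in H1975 and to the left in HCC827, where the medians were 11.0 (sensitive) and 4.02 FPKM (resistant).

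The median ratio of the members was above 0 in H1975 and below 0 in HCC827. In H1975 all 49 members were considered, and 4 were called higher (MX2, OAS2, IFIT1 and GBP1) and 1 lower (IFI27). Over all 11872 genes considered there, 3.21% were called higher and 8.56% lower. The members' median log2 ratio was 0.34, beside 0.00 for all genes considered, and 35 of the 49 ratios were above 0. With other scalings the number above 0 ran from 32 (FPKM ratios) to 36 (DESeq2 size factors). In HCC827, 45 members were considered, of which 27 were called lower and 3 higher (IFITM2, GBP1 and GBP2). Over all 11890 genes considered, 11.0% were called lower and 7.05% higher. The members' median there was −1.67, with 40 of 45 ratios below 0. MX2, CMPK2, TRIM22 and IFI27 stayed under the minimum in HCC827. In bulk libraries a smaller number of expressing cells and less RNA per cell cannot be told apart.

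The H1975 count depends on the threshold, since 17 further members were between 1.5-fold and 2-fold higher. At 1.5-fold, 21 members were higher and 2 lower in H1975, with 9.31% and 14.8% of all genes considered. In HCC827 the same threshold gave 5 higher and 33 lower members, with 15.3% and 19.1% of all genes. Whole counts in both libraries (within 0.005 of a whole number) were found for 22 members in H1975 and for 25 in HCC827, 22 of them considered there. Counts that are not whole arise where RSEM divides a read between genes, so those members are less certain. Among the 22 in H1975, OAS2 was the only higher and IFI27 the only lower member in H1975, where their median was 0.11. The 22 considered in HCC827 included 17 lower and no higher members, with a median of −2.17. These calls are at 2-fold, where 11.0% of all genes considered in HCC827, whole counts or not, were called lower and 7.05% higher. In H1975 8.56% were lower and 3.21% higher.

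**Figure D2:**
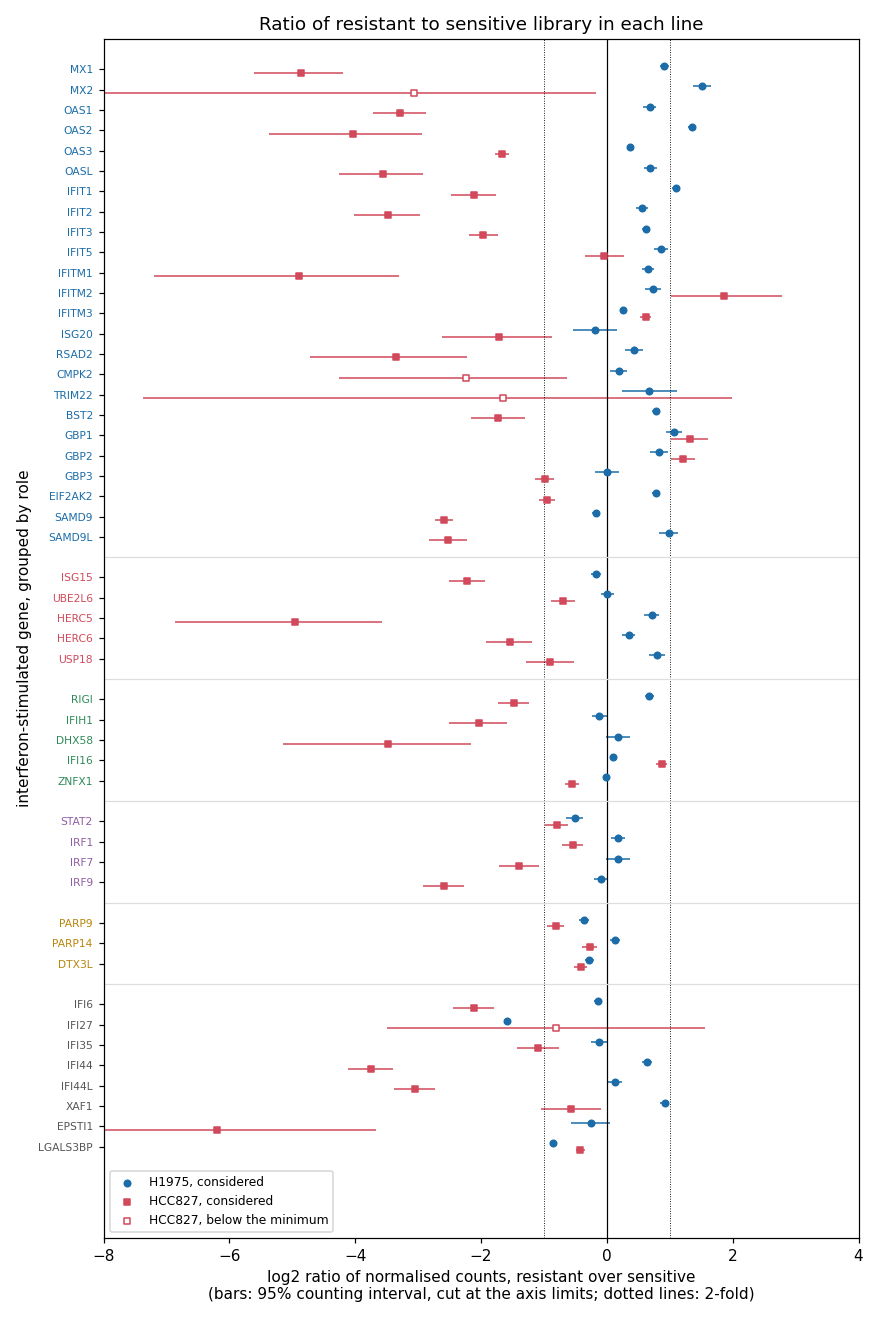
Log2 ratio of the resistant to the sensitive library for each member in H1975 (circles) and HCC827 (squares), with 95% counting intervals and dotted lines at 2-fold. Open squares mark the 4 members below the minimum in HCC827, and the HCC827 squares lie left of 0 for 40 of the 45 considered.

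Among the antiviral effectors, MX1 and MX2, GTPases that trap viral ribonucleoproteins, were each called in 1 line, MX1 lower in HCC827 and MX2 higher in H1975. MX1 had 42.2 and 79.0 FPKM in sensitive and resistant H1975, and 16.2 and 0.51 FPKM in sensitive and resistant HCC827. The HCC827 pair held 526 and 19 counts, a 29.0-fold lower level in the resistant library (log2 ratio −4.86 [−5.60, −4.20]), whereas H1975 was 1.88-fold higher (0.91 [0.84, 0.98]) and not called. MX2, which adjoins MX1 on chromosome 21, had 8.22 and 23.7 FPKM in H1975 and was called higher there (2.84-fold, with a log2 interval of 1.36 to 1.65). It was nearly silent in HCC827, where only 8 counts (sensitive) and 1 count (resistant) were found.

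The oligoadenylate synthetases make the messenger that activates the nuclease RNase L, and OAS1, OAS3 and OAS2 lie next to each other on chromosome 12. OAS2 had 30.8 and 78.2 FPKM in sensitive and resistant H1975, and 3.32 and 0.23 FPKM in HCC827. It was 2.55-fold higher in resistant H1975 (1.35 [1.28, 1.42]) and 16.3-fold lower in resistant HCC827 (−4.03 [−5.38, −2.94]), where 109 and 7 counts were left. OAS1 went from 26.8 to 2.85 FPKM in HCC827 (9.73-fold lower), OASL, a family member that boosts RIG-I signalling, from 10.8 to 0.97 FPKM (11.8-fold lower), and OAS3 from 37.7 to 12.3 FPKM (3.19-fold lower). In H1975 OAS1, OASL and OAS3 had ratios of 0.68, 0.69 and 0.37 and were not called. The difference between lines was widest for OAS2 and narrowest for OAS3 among these neighbours, −5.38 [−6.73, −4.29] and −2.04 [−2.15, −1.92] on the log2 scale, and these counting intervals did not overlap.

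IFIT proteins bind viral RNA and hinder its translation, and their genes form a cluster on chromosome 10. IFIT1 had 28.1 and 59.7 FPKM in sensitive and resistant H1975 (2.14-fold higher, 1.10 [1.03, 1.16]) and 7.07 and 1.70 FPKM in HCC827 (4.35-fold lower, −2.12 [−2.48, −1.77]). IFIT2 was 11.1-fold lower in resistant HCC827 (9.34 and 0.87 FPKM) and IFIT3 3.90-fold lower (27.5 and 7.24 FPKM). IFIT5, the direct neighbour of IFIT1, had 3.99 and 4.02 FPKM in HCC827. Its ratio there was −0.04 [−0.35, 0.26], apart from those of the other IFIT genes, while in H1975 it was 0.85 [0.75, 0.96], within the range of the family.

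The IFITM genes on chromosome 11, which encode membrane proteins that block virus fusion, split in HCC827. IFITM1 had 11.0 and 0.45 FPKM there (85 and 3 counts, −4.89 [−7.20, −3.30]), whereas IFITM2 had 1.89 and 7.23 FPKM (15 and 57 counts, 1.86 [1.02, 2.79]). IFITM3 had 258 and 411 FPKM (0.62 [0.53, 0.70]) and was not called. In H1975 the ratios of the IFITM genes lay between 0.26 and 0.73, with IFITM3 lowest. None of these genes had whole counts in either line, and their sequences are similar, so reads could be split between them and their values are uncertain.

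Guanylate-binding proteins, GTPases that attack intracellular pathogens and are induced strongly by interferon gamma, differed among themselves. GBP1 had 11.5 and 23.8 FPKM in sensitive and resistant H1975 and 3.93 and 10.2 FPKM in HCC827. It was the only member called higher in both lines, at 2.09-fold (1.06 [0.94, 1.19]) and 2.48-fold (1.31 [1.02, 1.61]). GBP2 had 7.10 and 16.98 FPKM in HCC827 (2.30-fold higher) and 6.27 and 11.0 FPKM in H1975 (1.77-fold, not called). GBP3, beside GBP1 on chromosome 1, had 34.6 and 19.2 FPKM in HCC827 (−0.99 [−1.14, −0.83]), just under 2-fold lower, and 6.64 and 6.51 FPKM in H1975. Counts of all 3 were not whole, and reads may be split among these related genes.

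The remaining effectors were lower or below the minimum in resistant HCC827, apart from EIF2AK2. RSAD2, the gene of viperin, which makes a chain-terminating nucleotide, had 1.76 and 0.18 FPKM (10.2-fold lower), and its neighbour CMPK2, a nucleotide kinase, had 18 and 4 counts. SAMD9 had 35.5 and 6.16 FPKM in HCC827 (6.01-fold lower) and its neighbour SAMD9L 7.94 and 1.46 FPKM (5.75-fold lower); both encode restriction factors of poxviruses. In H1975 these neighbours parted: SAMD9 had a ratio of −0.18 [−0.24, −0.12], and SAMD9L one of 0.98 [0.83, 1.14], just under 2-fold. It was called higher under DESeq2 size factors (1.02) and when the scaling was taken over all listed genes. BST2, or tetherin, which holds budding virions at the cell surface, was 3.30-fold lower in resistant HCC827 (16.8 and 5.29 FPKM) and had 143 and 245 FPKM in H1975 (0.79). The exonuclease gene ISG20 was 3.28-fold lower in HCC827, from 50 to 16 counts. EIF2AK2, the gene of the RNA-activated kinase PKR, was not called in either line, with ratios of 0.78 in H1975 and −0.95 in HCC827.

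ISG15 is a small ubiquitin-like protein that the E2 enzyme UBE2L6 and the ligase HERC5 attach to other proteins, and USP18 removes it and also restrains the interferon receptor. ISG15 had 213 and 187 FPKM in sensitive and resistant H1975 and 77.2 and 17.2 FPKM in HCC827. It was 4.66-fold lower in resistant HCC827 (−2.22 [−2.51, −1.94]) and close to level in H1975 (−0.17 [−0.25, −0.10]). HERC5 was far lower in resistant HCC827, with 119 and 4 counts (31.2-fold, −4.96 [−6.86, −3.57]), and had 11.9 and 19.3 FPKM in H1975 (0.71, not called). The adjacent HERC6 was 2.92-fold lower in HCC827. UBE2L6 and USP18 had HCC827 ratios of −0.70 and −0.90 and were not called, and in H1975 USP18 had a ratio of 0.80 and UBE2L6 exactly 1707 counts in each library.

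Of the 5 sensors of foreign nucleic acid, RIGI, IFIH1 and DHX58 were called lower in HCC827, where 11.0% of all genes considered were. RIGI and IFIH1, which encode the RNA sensors RIG-I and MDA5, had 9.58 and 3.57 FPKM and 5.03 and 1.27 FPKM in sensitive and resistant HCC827 (2.79-fold and 4.11-fold lower). DHX58, the gene of their relative LGP2, had 53 and 5 counts (−3.48 [−5.16, −2.16]). ZNFX1, an RNA sensor at mitochondria, was not called (−0.56), and IFI16, a sensor of nuclear DNA, had more reads in resistant HCC827 at 48.8 and 92.7 FPKM (0.87 [0.78, 0.96], not called). In H1975, where 3.21% of all genes considered were called higher and 8.56% lower, none of the 5 sensors was called. RIGI had 24.6 and 38.7 FPKM there (0.67), and the other 4 lay between −0.12 and 0.18.

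Of the transcription factors, IRF9, the DNA-binding subunit of the STAT complex, had 30.2 and 5.20 FPKM in sensitive and resistant HCC827 (6.03-fold lower, −2.59 [−2.92, −2.28]). IRF7, which amplifies the transcription of interferon genes, had 13.2 and 5.25 FPKM there (2.62-fold lower). STAT2, the partner of IRF9 (13.5 and 8.07 FPKM, −0.80), and IRF1, a factor of interferon gamma responses (19.2 and 13.7 FPKM, −0.54), were not called. In H1975 none was called, beside 3.21% higher and 8.56% lower over all genes considered. IRF9 had 36.3 and 33.7 FPKM there, IRF7 12.1 and 12.2 FPKM and IRF1 26.4 and 29.0 FPKM. STAT2 had the lowest ratio, −0.51 [−0.65, −0.38].

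PARP9 and its partner DTX3L, a ubiquitin ligase encoded next to it on chromosome 3, together with PARP14, add ADP-ribose or ubiquitin to proteins of the STAT response. None was called in either line. Most genes considered were not called either, with 3.21% higher and 8.56% lower in H1975, and 7.05% and 11.0% in HCC827. PARP9 had ratios of −0.37 in H1975 and −0.82 in HCC827, DTX3L of −0.28 and −0.41, and PARP14 of 0.13 and −0.28. This group had the median nearest to 0 of all roles in HCC827 (−0.41).

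The other induced proteins included the widest differences of each line. EPSTI1, an epithelial-stromal interaction gene, had 70 and 1 counts in sensitive and resistant HCC827 (−6.20 [−11.52, −3.67]) and 196 and 163 counts in H1975. IFI44 had 49.5 and 3.82 FPKM in HCC827 (13.5-fold lower) and its neighbour IFI44L 10.9 and 1.37 FPKM (8.28-fold lower); in H1975 their ratios were 0.63 and 0.13. IFI6, an antiapoptotic membrane protein, was 4.33-fold and IFI35 2.13-fold lower in HCC827, and both were within 1.2-fold in H1975. IFI27 was the only member called lower in H1975, at 759 and 250 FPKM (−1.59 [−1.64, −1.53]), and was close to absent in HCC827 with 5 and 3 counts. LGALS3BP, a secreted galectin-binding glycoprotein, had 297 and 163 FPKM in H1975 (−0.86, 1.81-fold, not called) and 150 and 116 FPKM in HCC827. XAF1, a proapoptotic gene, had 28.5 and 52.8 FPKM in H1975 (0.92, not called) and a ratio of −0.56 in HCC827.

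Of effectors, sensors and STAT and IRF factors, the effectors had the median ratio farthest from 0 and the factors the nearest, in both lines. In HCC827 14 of 21 effectors considered were called lower and 3 higher (median −1.96), 3 of 5 sensors lower (−1.48), and 2 of 4 factors lower (−1.09). The ISG15 system had 3 of 5 lower (−1.55) and the other induced proteins 5 of 7 (−2.12). In H1975 the effectors had a median of 0.68, with 22 of 24 ratios above 0, the sensors 0.10 and the factors 0.04. The sign of the factors' median in H1975 depended on the scale, since ratios of FPKM gave −0.05. No test was made between roles, which hold few genes each. Split by promoter, the 23 members with an ISRE core that were considered in HCC827 had a median of −1.96, with 15 called lower and 1 higher. The 13 without those letters had −1.09, with 7 called lower, beside 11.0% lower and 7.05% higher over all genes considered. In H1975 the medians with and without the core were 0.19 and 0.18. There 2 of 24 members with the core were called higher and 1 lower, and 0 of 14 without it were called. Over all genes considered in H1975, 3.21% were called higher and 8.56% lower. Members without the core, among them OAS1, RSAD2 and RIGI, lacked only those exact letters in the promoter stretch searched. Sites elsewhere or with other letters were not sought, so these members may still hold an ISRE.

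**Figure D3:**
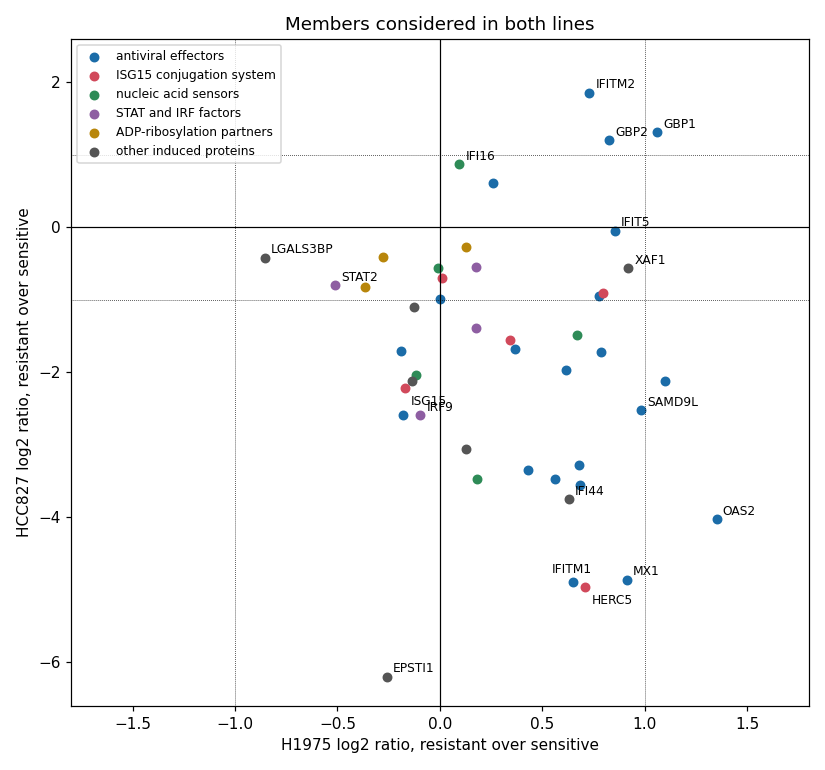
Log2 ratio of resistant to sensitive cells in H1975 (horizontal axis) against HCC827 (vertical axis) for the 45 members considered in both lines, coloured by role, with dotted lines at 2-fold. The lower right field, above 0 in H1975 and below 0 in HCC827, holds 27 members, and GBP1, GBP2, IFITM2, IFI16 and IFITM3 lie above 0 in both lines.

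Across the lines, 27 of the 45 members considered in both (60.0%) had a ratio above 0 in H1975 and below 0 in HCC827, a combination found in 20.4% of all 10961 genes considered in both. OAS2 and IFIT1 were called higher in H1975 and lower in HCC827, as were 0.182% of all these genes. Another 13 members were below 0 in both lines, 5 were above 0 in both, and none was below 0 in H1975 and above 0 in HCC827. These counts by sign hold for the scaling used here and include ratios near 0. GBP3 and UBE2L6 in H1975 (0.002 and 0.008) and IFIT5 in HCC827 (−0.04) changed sign under library totals and under FPKM ratios. IFI44L in H1975 (0.13) did so under FPKM ratios (−0.03). The difference between the log2 ratios of the lines, HCC827 minus H1975, was −5.77 [−6.52, −5.11] for MX1, −5.67 [−7.58, −4.27] for HERC5 and −5.38 [−6.73, −4.29] for OAS2. For GBP1 the same difference was 0.25 [−0.07, 0.58], and for DTX3L −0.13 [−0.26, −0.01]. These intervals cover counting error only, and the difference between lines was not tested, because 1 library per group leaves no spread to test it against.

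The fit over both lines estimated, for each gene, 1 resistant-to-sensitive difference shared by the lines, and did not require the same direction in each. None of the 49 members passed edgeR's quasi-likelihood test at an adjusted p of 0.05, nor did any of the 13445 genes tested (0% called higher and 0% lower). An unadjusted p under 0.05 was found for 5 of the 49 members and for 1305 of the 13445 genes. IFI27 had a log2 fold change of −1.45 ± 0.29 (SE; edgeR adjusted p = 0.274) and GBP1 of 1.20 ± 0.26 (edgeR adjusted p = 0.285), each with the same sign in 2 of 2 lines. DESeq2's Wald test called these 2 members, IFI27 lower (adjusted p = 0.0455) and GBP1 higher (adjusted p = 0.0458), among 450 genes in all. The IFI27 value rests almost wholly on H1975. For MX1 the same fit gave −1.60 with an SE of 1.72 (edgeR adjusted p = 0.804). With cell line as a block and 1 library per group, the only spread available was how far the resistant-to-sensitive difference varied between the 2 lines. Each gene's spread was also drawn toward that of the other genes tested, so no p-value rests on that gene's own 2 lines alone. Separate cultures are not described, so spread between cultures of a line was not measured.

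Upstream of these genes, interferon transcripts were scarce. IFNA1, IFNK and IFNG were listed in no library. IFNB1, the gene of interferon beta, had 1 and 16 counts in sensitive and resistant H1975 (4.01 [1.32, 9.40]) at 0.05 and 0.86 FPKM, under the minimum, and was not listed in HCC827. The interferon lambda gene IFNL1 had 2 and 7 counts in H1975 and 1 in each HCC827 library, and no other listed interferon gene passed 6 counts.

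Among 9 receptor and JAK kinase genes, 1 was called higher and 1 lower in H1975, and 1 lower in HCC827. Over all genes considered, 3.21% were called higher and 8.56% lower in H1975, and 7.05% and 11.0% in HCC827. IFNAR2, a subunit of the type I receptor, had 7.43 and 19.7 FPKM in H1975 (2.68-fold higher) and 16.0 and 24.7 FPKM in HCC827 (0.57, not called), while its partner IFNAR1 had ratios of 0.25 and 0.09. IFNLR1, the lambda receptor subunit, was 9.85-fold lower in resistant H1975 (109 and 11 counts) and had a ratio of −0.48 in HCC827; its partner IL10RB had −0.48 and −0.43. The gamma receptor genes IFNGR1 and IFNGR2 had ratios of 0.07 and 0.34 in H1975 and 0.72 and −0.28 in HCC827. Of the kinases, JAK2 was 3.62-fold lower in resistant HCC827 (76 and 22 counts), and JAK1 (0.02 and 0.21) and TYK2 (0.04 and 0.10) were not called in either line.

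**Figure D4:**
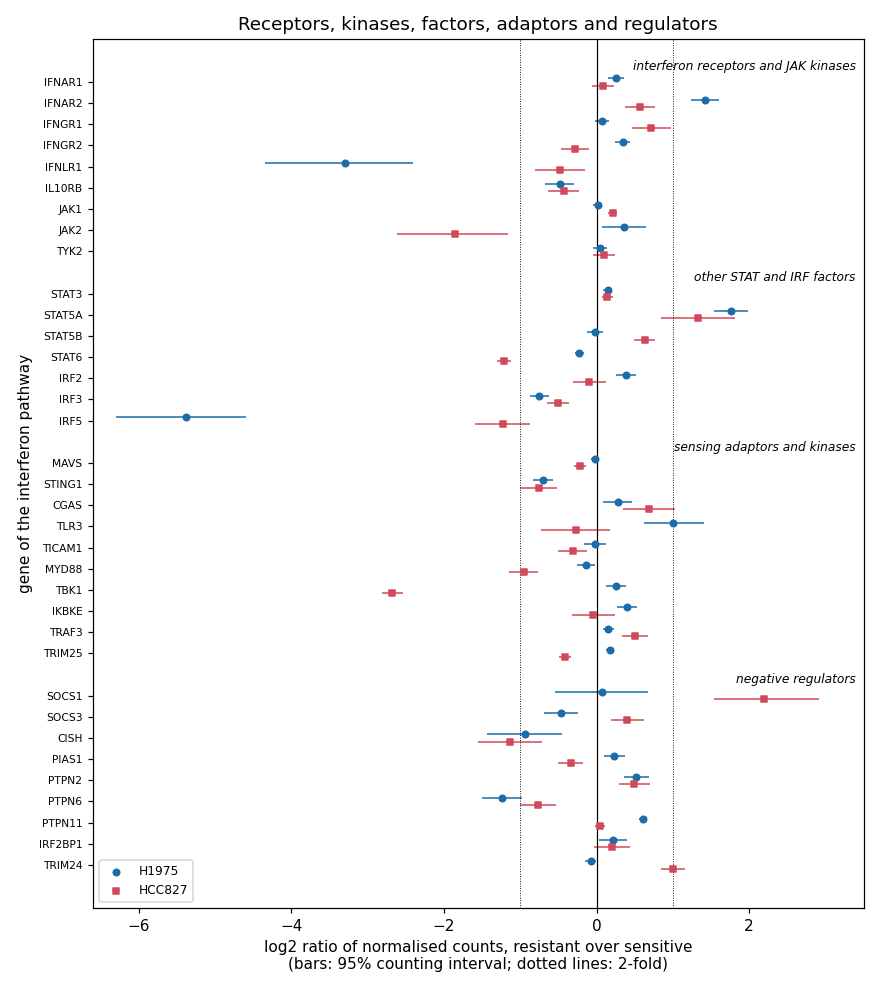
Log2 ratio of resistant to sensitive cells, with 95% counting intervals, for receptors, JAK kinases, other STAT and IRF factors, sensing adaptors and negative regulators of the interferon pathway in H1975 (circles) and HCC827 (squares). IRF5 lies below −1 and STAT5A above 1 in both lines, while TBK1, JAK2 and STAT6 lie below −1 in HCC827 alone.

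Of the STAT and IRF factors outside the 49, STAT6, a mediator of interleukin signals, was lower in resistant HCC827 (2.32-fold), STAT5A was higher in both lines (3.39-fold and 2.51-fold), and STAT3 and STAT5B were not called. IRF5 was 41.8-fold lower in resistant H1975 (547 and 13 counts) and 2.35-fold lower in HCC827. IRF2 and IRF3 were not called in either line (0.39 and −0.75 in H1975, −0.09 and −0.50 in HCC827), and IRF4 and IRF8 had at most 8 counts. Among 10 sensing adaptors and kinases, TBK1, the kinase that activates IRF3, had 89.3 and 14.5 FPKM in sensitive and resistant HCC827 (6.41-fold lower, −2.68 [−2.82, −2.54]) and 12.9 and 15.3 FPKM in H1975. TLR3, an endosomal sensor of double-stranded RNA, was 2.01-fold higher in resistant H1975 (83 and 166 counts), at the edge of the threshold. Of 9 negative regulators, SOCS1, an inhibitor of JAK kinases, had 23 and 111 counts in HCC827 (4.60-fold higher), CISH was 2.19-fold lower there, and the phosphatase gene PTPN6 was 2.36-fold lower in H1975.

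A further list of 31 interferon-induced genes outside the 49 had medians with the same signs. In HCC827, 26 were considered, of which 7 were called lower and 1 higher (median −0.55). Over all genes considered there, 11.0% were called lower and 7.05% higher. DDX60, a helicase that assists RIG-I, was 11.8-fold lower with 24.2 and 2.14 FPKM, APOL6 2.67-fold, SP100 2.57-fold, PARP10 2.49-fold, HELZ2 2.27-fold, TRIM21 2.22-fold and APOL2 2.15-fold lower, and IFI30, a lysosomal reductase induced by interferon gamma, 2.37-fold higher. In H1975, where 3.21% of all genes considered were called higher and 8.56% lower, 29 were considered and 2 were called, both higher (median 0.20). These were the chemokine genes CXCL10 (3 and 46 counts, 3.95 [2.31, 6.28]) and CXCL11 (8 and 78 counts, 3.29 [2.25, 4.55]), from low levels. In HCC827, CXCL10 had 1 and 8 counts, under the minimum, and CXCL11 had 1 in each library.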

How the data were processed

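RNA was extracted with TRIzol and made into MGIEasy mRNA libraries, per the labels. The submitters' processing notes name RSEM, HISAT2, Bowtie2 and the hg19 build; their versions, settings and use of strand are not stated in the sources used here. The authors deposited, per NCBI Gene ID, RSEM expected counts (estimated read counts, not normalized) and FPKM values, scaled by the authors for transcript length and depth. Genes at 0 are not listed, and an absent row was taken as 0. Transcript lists were identical within each pair but differ between the lines.

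Expected counts were rounded. Within each pair, TMM factors (edgeR 4.0.16) were taken over the genes considered (1 FPKM and 20 counts in at least 1 library): 1.005 and 0.995 in H1975, 0.981 and 1.019 in HCC827. The factors were first computed over all listed genes; after those results had been seen they were changed to the genes considered, and the first version, which called 5 rather than 4 members higher in H1975, is kept as an alternative. Log2 ratios used no prior count; a library at 0 was set to 3 counts. Intervals are Clopper-Pearson intervals of the conditional binomial at 95% (exact conditional odds ratios for differences between lines), and since reads carry no molecular identifiers they cover counting error only. Both lines together were fitted with edgeR's quasi-likelihood test (cell line as block, filterByExpr, then TMM over the genes kept) and Benjamini-Hochberg adjustment, two-sided, with 1 residual degree of freedom, on genes listed in at least 1 library of each line; DESeq2 1.42.0 was an alternative. The resistant and sensitive libraries pair by cell line. The scripts were tested on simulated counts.

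Symbols came from a RefSeq gene table (GRCh38.p14), used for names and neighbour order only. The members and lists were chosen with earlier results of these data known. Any member could be named; of other pathway genes, every measured receptor, JAK kinase, STAT and IRF gene, and those called in at least 1 line; some of these are not reported here and were left out of the lists. Alternatives were other scalings, filters, thresholds, FPKM ratios and pseudocounts.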

Additional observations from a re-analysis of the deposited data

Results flagged for a closer look

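OAS2 was called higher in resistant H1975 and lower in resistant HCC827, the HCC827 log2 ratio minus the H1975 ratio being −5.38. IFIT1 did the same, with a difference of −3.22. Each was singled out because the libraries of the 2 lines moved in opposite directions past 2-fold. The difference was not tested, since each group has 1 library.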

How the results depend on the processing

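The direction of every called member was kept under DESeq2 size factors, library totals and FPKM ratios. Counts of called members stayed within 1.5 times under those scalings, under TMM over all listed genes, with no low filter and with a filter of 5 FPKM and 50 counts. TMM over all listed genes was the first scaling run, and the change to the genes considered was made after seeing its results; it called 5 members higher in H1975, as did DESeq2 size factors, SAMD9L being the added member. A 1.5-fold threshold moved the H1975 counts from 4 to 21 higher and from 1 to 2 lower, and the HCC827 count from 3 to 5 higher. Restricting to members with whole counts, an alternative chosen after seeing the data, left 22 members in each line. It gave 1 higher member and a median of 0.11 in H1975, and 0 higher members, 17 lower ones and a median of −2.17 in HCC827. On the log2(FPKM + 1) scale the HCC827 median was −1.21, since that scale shrinks low values. Over both lines, DESeq2's Wald test called 1 member higher and 1 lower where edgeR called 0; the cause was not tested. No edgeR alternative called a member: no filter, upper quartile scaling, no cell line block, or genes listed in all 4 files. No paired analysis by replicate number was possible because each group has 1 library; the cell line was the block. Depth limits the HCC827 ratios most: the EPSTI1 interval, resting on 70 and 1 counts, ran from −11.52 to −3.67.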
